A study of Mus musculus with 2 samples.

Results

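Promyelocytes, the marrow cells that make the primary (azurophilic) granules of neutrophils, were described in bone marrow from mice with an experimental stroke and from control mice. A cell was taken as a promyelocyte when its summed level of Mpo, Elane, Prtn3 and Ctsg was at least 100 UMIs per 10000 and its summed level of Ltf, Camp and Ngp, proteins of the later secondary granules, was under 400 per 10000. A UMI (unique molecular identifier) marks 1 captured mRNA molecule. The rule kept 340 of 10610 cells: 214 of 5398 cells in the MCAO library and 126 of 5212 cells in the control library. Because these 7 genes chose the cells, their own values are a description and support nothing.

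The MCAO library came from male wild-type (WT) mice, 8 to 10 weeks old, after middle cerebral artery occlusion, a stroke model in which an artery to the brain is blocked. The control library came from male WT mice of the same age whose disease state is labelled control, and the sources used here do not say whether these had a sham operation. Both libraries held all bone marrow cells after red cell lysis, captured on the BD Rhapsody microwell system with whole-transcriptome chemistry. The number of animals pooled in a library and the time after occlusion are not given in the sources used here. With a single library on each side (1 MCAO, 1 control), the differences below lack a replicate check, and no p-value was computed. Square brackets hold 95% intervals, which take in the error of counting alone.

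Neutrophils form in marrow through a fixed order of stages. Myeloblasts become promyelocytes, which make the serine proteases and myeloperoxidase of the primary granules, and these become myelocytes, which stop making primary granule mRNA and start on lactoferrin and cathelicidin. The factors C/EBPα, PU.1, MYB and GFI1 act at the promyelocyte stage, and C/EBPε is needed for the step to secondary granules. IRF8 and KLF4 act on the monocyte branch, whose early cells share MPO and the proteases with promyelocytes.

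The promyelocytes were deeply sampled. Their median was 17771.5 UMIs per cell in the MCAO library and 16871.5 in the control library, with ranges of 1251 to 38330 and of 470 to 38568 UMIs. Over all cells the medians were 4952 UMIs in the MCAO library and 3344 UMIs in the control library. The summed UMIs of the promyelocytes were 4008537 in the MCAO library and 2180705 in the control library. A gene's level below is its summed UMIs per 10000 summed UMIs of the cells named.

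Promyelocytes made up 3.96% [3.46 to 4.52] of the MCAO library and 2.42% [2.02 to 2.87] of the control library, a difference of 1.55 percentage points and a ratio of 1.64. The exact binomial intervals did not overlap. The share of B-lineage cells, which had Cd79a plus Cd79b of at least 10 per 10000, moved the other way, with 11.5% in the MCAO library and 21.7% in the control library. With B-lineage cells left out of the denominator, promyelocytes were 4.48% [3.91 to 5.11] in the MCAO library and 3.06% [2.56 to 3.64] in the control library. Progenitors had Cd34 plus Kit of at least 2 and summed primary granule genes under 100 per 10000, with secondary granule, basophil and erythroid genes low. They were 1.78% of the MCAO library and 1.86% of the control library. This group was mixed and is not a pure stage before the promyelocyte. Only 86 of its 96 MCAO cells and 86 of its 97 control cells fell below the B-lineage cut. Pre-neutrophils with Fcnb and secondary granule transcripts, the stage after the promyelocyte, were 9.54% of the MCAO library and 6.35% of the control library. Dividing monocyte precursors stood higher too, at 13.8% of the MCAO library and 9.88% of the control library.

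**Figure D1:**
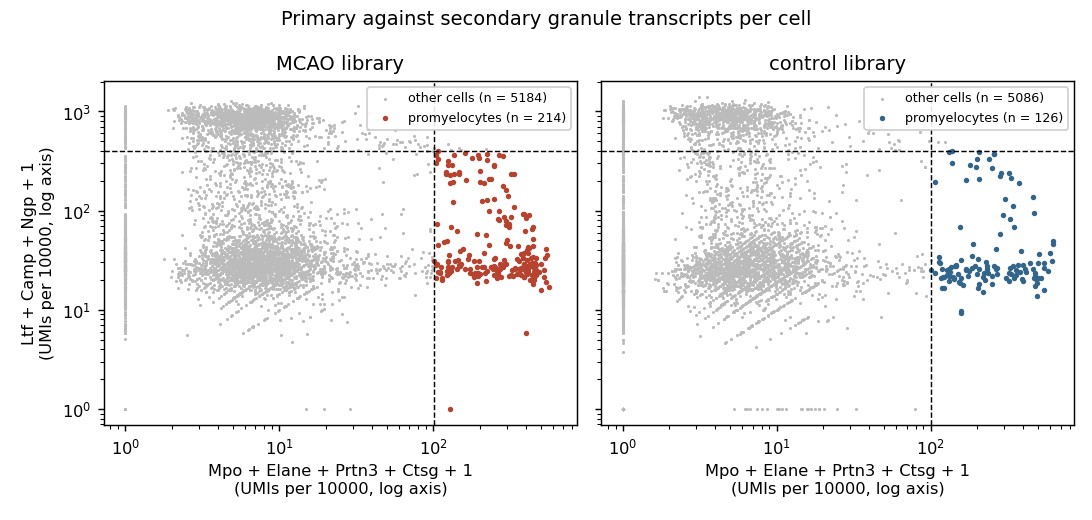
Summed primary granule transcripts (x axis) against summed secondary granule transcripts (y axis) in every cell, in UMIs per 10000 plus 1 on log axes, for the MCAO library (left) and the control library (right). Coloured points are the 214 MCAO and 126 control promyelocytes, right of and below the dashed cut-offs.

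The primary sum had a median of 263 per 10000 in MCAO promyelocytes and 233 in control promyelocytes, against 5.49 in all other MCAO cells and 3.74 in all other control cells. Few cells lay at the cut-off. Within 10% of it, 11 MCAO cells and 3 control cells fell inside and 16 MCAO cells and 5 control cells fell outside. The nearest MCAO cells had 100.8 and 99.6 per 10000 and the nearest control cells 100.1 and 99.1. At the secondary cut-off, 6 MCAO and 5 control cells lay just inside, and 4 MCAO and 0 control cells just outside.

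The genes of the gate code for the granule enzymes. Mpo, myeloperoxidase, lies at chr11:87793581-87804413 (+ strand) of mm10 and had 91.4 UMIs per 10000 in MCAO promyelocytes and 94.2 in control promyelocytes. Elane, neutrophil elastase, at chr10:79886247-79888215 (+ strand), had 77.7 in MCAO and 74.5 in control promyelocytes. Prtn3, proteinase 3, is its neighbour at chr10:79874476-79883174 (+ strand) and had 89.5 in MCAO and 82.9 in control promyelocytes. Ctsg, cathepsin G, at chr14:56099881-56102574 (- strand), had 24.5 in MCAO and 22.1 in control promyelocytes. Per cell, Mpo ran from 7.86 over a median of 87.8 to 253 in MCAO and from 0 over a median of 90.8 to 227 in control promyelocytes, so the cells of the libraries overlapped. Over all promyelocytes these 4 levels differed by less than 1.2 times between the libraries. In those with a secondary sum of 100 to 400, Mpo was at 47.6 in MCAO and 76.2 in control, Elane at 71.5 in MCAO and 92.1 in control and Prtn3 at 72.5 in MCAO and 90.2 in control. Mpo overlaps Gm11505 and Prtn3 overlaps Plppr3 on the opposite strand, and whether the authors counted by strand is not given in the sources used here.

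Ms4a3, which the rule did not use, codes for a membrane protein of granulocyte and monocyte progenitors and lies at chr19:11629496-11640851 (- strand). It had 9.93 UMIs per 10000 [9.62 to 10.2] in MCAO promyelocytes and 8.79 [8.397 to 9.19] in control promyelocytes. Per cell, it ran from 0 over a median of 9.18 to 31.97 in MCAO and from 0 over a median of 8.34 to 42.4 in control promyelocytes. In all other cells it had 0.515 in the MCAO library and 0.394 in the control library. A UMI of Ms4a3 was seen in 96.3% of MCAO and 93.7% of control promyelocytes, against 3.70% of MCAO and 2.30% of control B-lineage cells, which should lack it. The B-lineage cells were shallower, with medians of 2150.5 UMIs in the MCAO library and 2005.5 in the control library. At 1000 UMIs per cell it was seen in 125 of 214 MCAO and 60 of 120 control promyelocytes, against 1.78% of MCAO and 0.937% of control B-lineage cells. That thinning left out 6 control promyelocytes and 0 MCAO promyelocytes. Of the 5 marker genes of the promyelocyte label, Mpo, Elane, Prtn3 and Ctsg chose the cells, so their presence supports nothing. Ms4a3 was present without having been used to choose the cells.

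**Figure D2:**
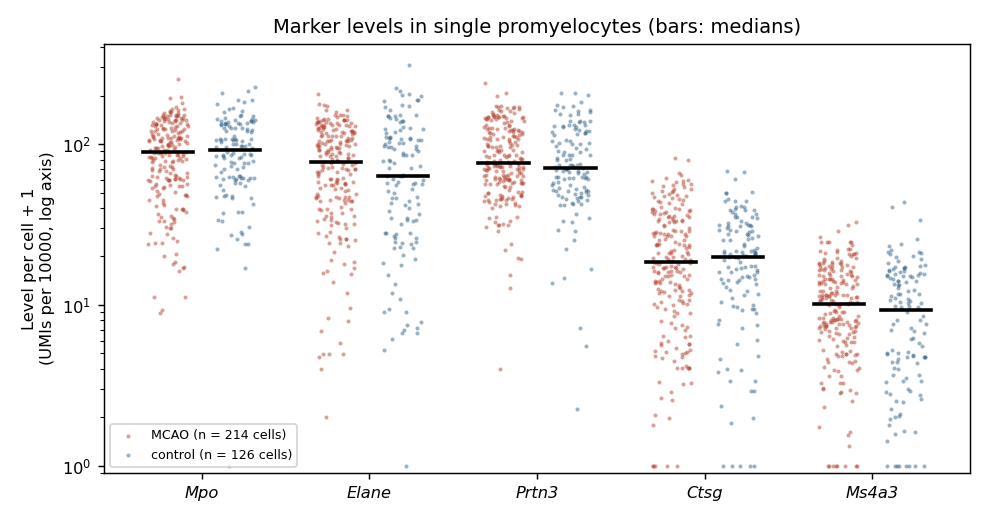
Level of each marker gene per cell, in UMIs per 10000 plus 1 on a log axis, in 214 MCAO promyelocytes (left of each pair) and 126 control promyelocytes (right). Points are cells and bars are medians, and the ranges of the libraries overlap for all 5 genes.

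Besides Ms4a3, the genes that stood highest in promyelocytes over all other cells included further granule and secretory genes. Prss57, a primary granule serine protease, had 2.62 in MCAO and 2.05 in control promyelocytes and was 16.2 times as high as in other cells of both libraries together. Cst7 (cystatin F, an inhibitor of cathepsin C) was 17.4 times as high, and Nkg7, a granule membrane protein of cytotoxic cells, was 10.1 times as high. Dio2, which codes for a thyroid hormone deiodinase, was 32.9 times as high, at 1.02 in MCAO and 0.913 in control promyelocytes. Mgl2, a C-type lectin best known from macrophages and dendritic cells, was 17.97 times as high, with 1.78 in MCAO and 1.10 in control promyelocytes. Dmkn (21.6 times), Gstm1 (11.1 times), Kcnip3 (15.3 times), Vat1 (10.0 times), Igfbp4 (8.96 times) and B4galt6 (8.87 times) completed the 12. These genes describe the cells that the gate kept, and no test was made of them.

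Within the promyelocytes the marker genes varied together from cell to cell. Spearman's rho between Elane and Prtn3 was 0.76 over 214 MCAO cells and 0.81 over 126 control cells. Between Mpo and Ctsg it was 0.77 in MCAO and 0.69 in control cells, while between Elane and Ctsg it was 0.49 in MCAO and 0.44 in control cells. Elane and Ms4a3 had 0.66 in MCAO and 0.73 in control cells, and Mpo and Elane had 0.59 in MCAO and 0.61 in control cells. The cells were chosen by the sum of Mpo, Elane, Prtn3 and Ctsg. They also share the preparation of their library, and each cell's values share 1 depth, so these are descriptions. The 250 bases before the RefSeq start of each of the 5 marker genes are shown because these genes define the cells, with matches to 3 motifs of factors of this stage in capitals. The motifs were TTNNGNAA for C/EBP, GAGGAA for PU.1, and CAACTG or TAACTG for MYB, on both strands, and no 2 matches overlap.
Mpo: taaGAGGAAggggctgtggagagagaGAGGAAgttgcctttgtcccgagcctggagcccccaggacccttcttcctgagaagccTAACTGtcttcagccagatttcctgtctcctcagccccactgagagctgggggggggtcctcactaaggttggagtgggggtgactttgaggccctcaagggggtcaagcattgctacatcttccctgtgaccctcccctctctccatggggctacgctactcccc
Elane: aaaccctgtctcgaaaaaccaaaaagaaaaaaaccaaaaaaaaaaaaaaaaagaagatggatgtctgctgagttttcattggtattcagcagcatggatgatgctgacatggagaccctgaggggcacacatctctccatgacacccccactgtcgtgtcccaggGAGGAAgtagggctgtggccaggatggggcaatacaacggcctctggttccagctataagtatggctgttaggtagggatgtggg
Prtn3: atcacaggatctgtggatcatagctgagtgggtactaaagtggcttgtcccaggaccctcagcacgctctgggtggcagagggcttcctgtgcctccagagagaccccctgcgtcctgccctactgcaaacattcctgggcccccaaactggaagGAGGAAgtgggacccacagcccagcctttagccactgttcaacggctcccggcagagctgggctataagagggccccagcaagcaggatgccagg
Ctsg: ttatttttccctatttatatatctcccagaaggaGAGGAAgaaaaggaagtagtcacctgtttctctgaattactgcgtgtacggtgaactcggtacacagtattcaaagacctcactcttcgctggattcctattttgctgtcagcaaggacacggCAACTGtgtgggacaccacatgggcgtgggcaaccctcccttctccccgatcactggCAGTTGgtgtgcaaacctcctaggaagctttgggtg
Ms4a3: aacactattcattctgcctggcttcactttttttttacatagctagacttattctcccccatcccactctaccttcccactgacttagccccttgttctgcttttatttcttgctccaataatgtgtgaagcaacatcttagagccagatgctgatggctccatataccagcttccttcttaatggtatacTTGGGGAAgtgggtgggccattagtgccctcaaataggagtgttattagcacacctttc
The sequences are from RefSeq on GRCm38.p6, 5′ to 3′ on the strand of the gene, at chr11:87793534-87793783 (+) for Mpo, chr10:79886062-79886311 (+) for Elane, chr10:79879417-79879666 (+) for Prtn3, chr14:56102575-56102824 (-) for Ctsg and chr19:11640852-11641101 (-) for Ms4a3. GENCODE starts Mpo, Elane and Prtn3 further upstream than RefSeq does. PU.1 letters occur 2 times before Mpo and 1 time each before Elane, Prtn3 and Ctsg. MYB letters occur 1 time before Mpo and 2 times before Ctsg, and C/EBP letters 1 time before Ms4a3. Of 32851 windows of the same length, 23.3% hold the PU.1 letters, 18.5% the MYB letters and 36.8% the C/EBP letters. A match shows letters only, not a bound site.

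The promyelocytes were not uniform along the neutrophil stages. In 42 of 214 MCAO cells (19.6%) and 22 of 126 control cells (17.5%) the secondary sum was already 100 to 400 per 10000, within the gate. Those cells had Fcnb, a ficolin of the stage after promyelocytes, at 40.3 in the MCAO library and 50.5 in the control library. The cells with a secondary sum under 100 had Fcnb at 7.78 in the MCAO library and 4.34 in the control library. Cebpe, the factor of the switch to secondary granules, was at 4.59 in MCAO and 5.06 in control cells of the later range, and at 1.59 in MCAO and 0.890 in control cells of the earlier one. Ctsg ran the other way, at 7.03 in MCAO and 7.24 in control cells of the later range, against 28.1 in MCAO and 24.4 in control cells of the earlier one. The chaperone gene Calr was at 11.3 in MCAO and 17.8 in control cells of the later range, against 35.4 in MCAO and 40.7 in control cells of the earlier one. The earlier range therefore held the high Ctsg and Calr and the later range the high Fcnb and Cebpe, in each library. The ranges are slices of a continuum, and 5 MCAO and 2 control cells lay within 10 per 10000 of the cut.

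A second axis separated cells by the branch they expressed. Cells with Csf1r plus Ly86 plus F13a1, genes of the monocyte branch, at 15 per 10000 or more were 42 of 214 MCAO promyelocytes (19.6% [14.5 to 25.6]) and 34 of 126 control promyelocytes (27.0% [19.5 to 35.6]), and these intervals overlapped. In that range Irf8 was at 11.03 in MCAO and 12.1 in control cells, and Klf4 at 2.24 in MCAO and 1.91 in control cells. Gfi1, a repressor needed for granulocytes, was low there, at 0.123 in MCAO and 0.236 in control cells, and Cebpe was at 0.324 in MCAO and 0.169 in control cells. Below the cut, Irf8 was at 1.38 in MCAO and 2.19 in control cells, Klf4 at 0.189 in MCAO and 0.176 in control cells and Gfi1 at 1.80 in MCAO and 1.74 in control cells. Ms4a3 was at 4.10 in MCAO and 2.94 in control cells of the monocyte range, against 11.6 in MCAO and 10.97 in control cells below it. The chemokine receptor gene Ccr2 was at 5.51 in MCAO and 5.87 in control cells of the monocyte range, against 0.841 in MCAO and 0.756 in control cells below it. The gate thus holds cells with monocyte genes and high Irf8 beside cells with Gfi1 and Cebpe, and 16 MCAO and 17 control cells lay within 3 per 10000 of the cut.

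**Figure D3:**
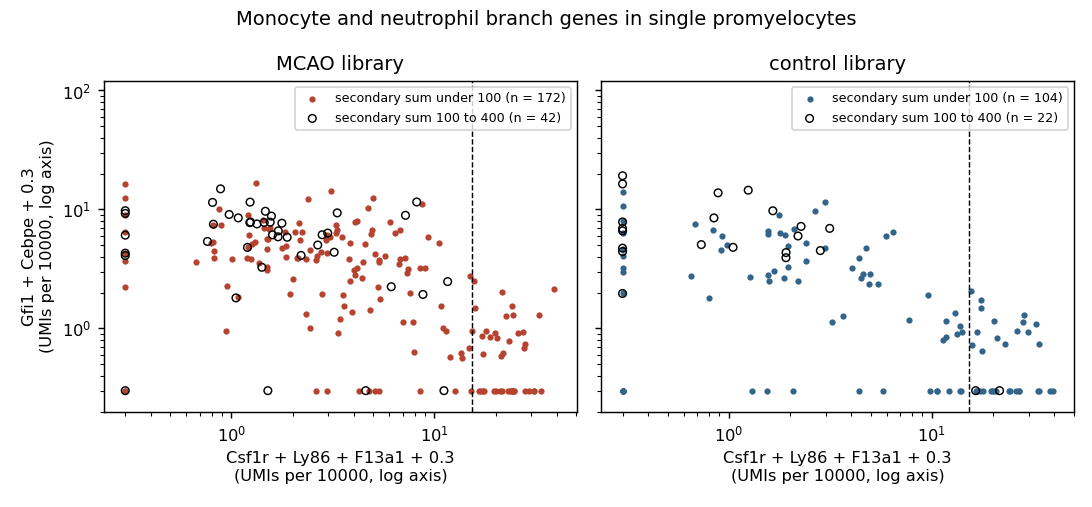
Monocyte genes (Csf1r + Ly86 + F13a1, x axis) against granulocyte factors (Gfi1 + Cebpe, y axis) in each promyelocyte, in UMIs per 10000 plus 0.3 on log axes, for the MCAO library (left) and the control library (right). Right of the dashed cut at 15, Gfi1 + Cebpe reaches at most 2.21 in the MCAO library and 1.76 in the control library, and 20 of 42 MCAO and 19 of 34 control cells have no UMI of them.

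Some promyelocytes carried genes of other granulocytes. Basophil genes (Cpa3, Mcpt8, Prss34 and Ms4a2, summed) were at 20 per 10000 or more in 2 MCAO and 5 control cells. Eosinophil genes (Prg2, Epx and Prg3, summed) reached that level in 1 MCAO and 2 control cells. B-lineage, T and NK cell markers were near 0: the 9 B-lineage markers summed to 1.06 in MCAO and 1.88 in control promyelocytes, against 86.5 in MCAO and 94.8 in control B-lineage cells. The 8 T and NK cell markers summed to 0.155 in MCAO and 0.266 in control promyelocytes.

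Across progenitors, promyelocytes, pre-neutrophils and monocyte precursors, Gfi1 was highest in promyelocytes, while Cd34 and Cebpe lay between the progenitors and the pre-neutrophils. Mpo, on which the promyelocytes were chosen, was at 91.4 in MCAO and 94.2 in control promyelocytes, against 9.31 in MCAO and 7.54 in control Cd34-or-Kit progenitors and 2.29 in MCAO and 1.59 in control pre-neutrophils. The progenitor antigen gene Cd34 was at 1.32 [1.21 to 1.44] in MCAO and 1.99 [1.81 to 2.19] in control promyelocytes, against 5.84 in MCAO and 5.51 in control progenitors, which were chosen on it, and 0.0470 in MCAO and 0.0576 in control pre-neutrophils. Gfi1 was at 1.43 [1.31 to 1.55] in MCAO and 1.33 [1.18 to 1.49] in control promyelocytes, and was lower in the progenitors and pre-neutrophils of each library. Cebpe was at 2.10 [1.961 to 2.25] in MCAO and 1.45 [1.29 to 1.62] in control promyelocytes, and at 4.82 in MCAO and 4.97 in control pre-neutrophils. Irf8 was at 3.53 [3.35 to 3.72] in MCAO and 4.89 [4.60 to 5.19] in control promyelocytes, and at 8.24 in MCAO and 8.37 in control dividing monocyte precursors. In the mixed progenitor group Irf8 was at 8.86 in MCAO and 8.97 in control cells.

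**Figure D4:**
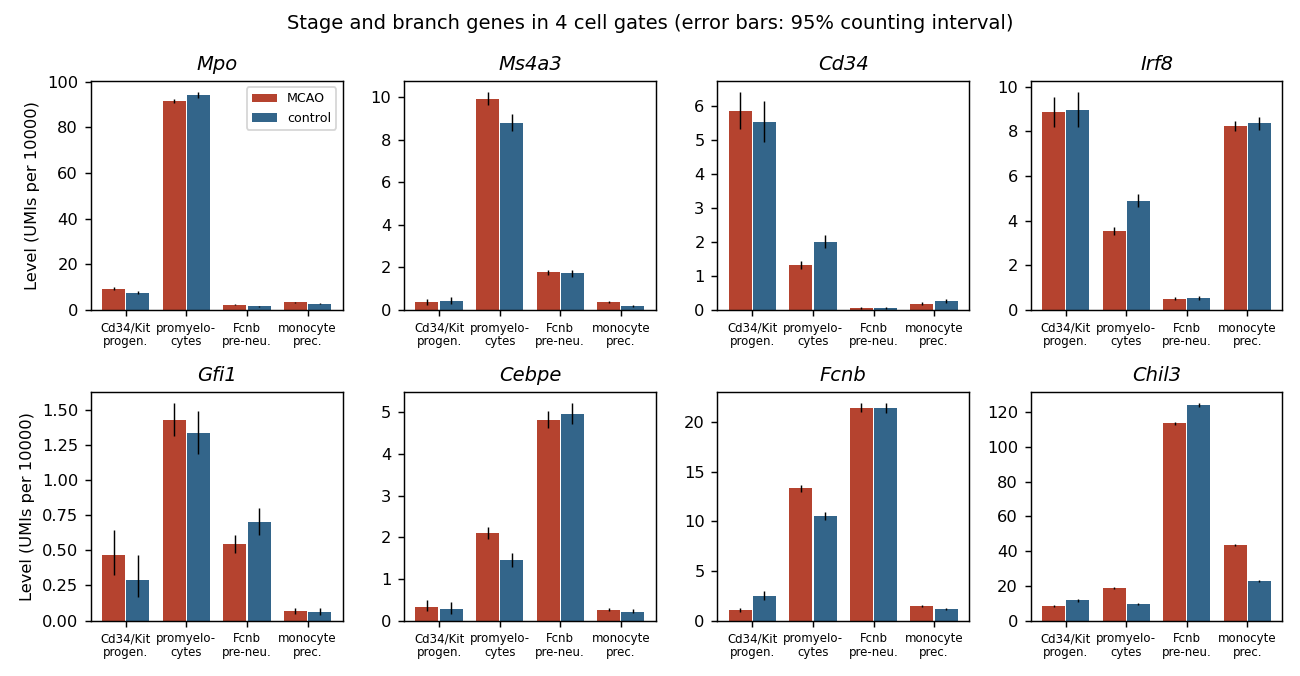
Levels of 8 stage and branch genes (y axis, UMIs per 10000) in Cd34-or-Kit progenitors, promyelocytes, Fcnb pre-neutrophils and dividing monocyte precursors, MCAO left and control right in each pair. Error bars are 95% counting intervals of 1 library each. Chil3 stands at 18.9 in MCAO and 9.59 in control promyelocytes, while Cd34 and Irf8 stand lower in MCAO promyelocytes. Chil3 is also higher in MCAO in monocyte precursors (43.4 in MCAO, 22.6 in control). It is lower in MCAO in pre-neutrophils (114 in MCAO, 124 in control) and progenitors (8.39 in MCAO, 11.7 in control).

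Between the libraries, 9223 genes had enough UMIs in promyelocytes to be compared. At least 2-fold higher in MCAO promyelocytes were 35 genes (0.379%), and at least 2-fold lower were 53 genes (0.575%). The median log2 ratio of MCAO over control over all 9223 was -0.02. A ratio above 0 was found for 46.7% of genes and below 0 for 53.3%. The counting interval of the fold lay wholly above 1 for 9.69% and wholly below 1 for 12.1%. Gene lists are read below against these shares, as counts, since no test could be made. With 1 library a group, a difference between the conditions and one between the 2 preparations cannot be told apart.

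Genes of the next stage stood higher in MCAO promyelocytes. Of 16 such genes, 14 had a ratio above 0 and an interval above 1, and the list median was 0.53 on the log2 scale. Chil3, a chitinase-like secreted protein, had 18.9 in MCAO and 9.59 in control promyelocytes, a fold of 1.97 [1.87 to 2.07]. Its median per cell was 7.94 in MCAO and 4.68 in control cells, and the cells of the libraries overlapped over most of their range. The granule lipocalin gene Lcn2 had 19.1 in MCAO and 12.05 in control promyelocytes (fold 1.59 [1.52 to 1.66]). Anxa1, an annexin that limits neutrophil recruitment, had 8.06 in MCAO and 4.48 in control promyelocytes (fold 1.80 [1.67 to 1.93]). Wfdc21 had 16.2 in MCAO and 9.79 in control promyelocytes, and Fcnb had 13.3 in MCAO and 10.5 in control promyelocytes. Cd177, a neutrophil surface protein, had 3.75 in MCAO and 2.34 in control promyelocytes (fold 1.60 [1.45 to 1.77]). Mmp8 and Padi4 were the 2 genes with ratios below 0, at -0.09 and -0.05.

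Part of the next-stage mRNA was also present in B-lineage cells, which do not make it. The 16 genes summed to 117 in MCAO and 78.2 in control promyelocytes, and to 63.7 in MCAO and 48.4 in control B-lineage cells, where 14 of 15 compared genes stood higher in MCAO (46.1% of all genes compared there) and the median was 0.41. Chil3 was at 6.35 in MCAO and 5.02 in control B-lineage cells, Lcn2 at 17.9 in MCAO and 13.5 in control, and Anxa1 at 2.28 in MCAO and 1.83 in control. The promyelocyte level of Lcn2 was thus close to that of B-lineage cells in MCAO and below it in control. These levels are not matched for depth. B-lineage cells had medians of 2150.5 UMIs in MCAO and 2005.5 in control, against 17771.5 and 16871.5 in promyelocytes. Like levels therefore do not give the share of free RNA in promyelocytes. The summed levels of Chil3 and Anxa1 were above those of B-lineage cells in each library. Per cell, the Chil3 median was 7.94 in MCAO and 4.68 in control promyelocytes, and the control median was below the summed level of control B-lineage cells. In monocyte precursors the list median was 0.38, in pre-neutrophils -0.01 and in progenitors -0.27. What part free RNA had in the promyelocyte values was not tested. Within promyelocytes with a secondary sum under 100, 14 of 15 next-stage genes stood higher in MCAO (47.3% of all genes there), with a median of 0.51. Within those with monocyte genes under 15 per 10000, 15 of 16 did (46.3% of all genes there), with a median of 0.62. The medians were smaller in the complementary ranges, at 0.31 with a secondary sum of 100 to 400 and 0.25 with monocyte genes of 15 or more.

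The genes of earlier stages stood lower as a group. Of 12 early progenitor genes compared, 3 had a ratio above 0 and 9 below, with a median of -0.25. In promyelocytes with a primary sum of at least 200 the median was 0.012. Cd34 had a fold of 0.663 [0.583 to 0.754], and a UMI of it was seen in 34.6% of MCAO and 55.6% of control promyelocytes. At 1000 UMIs per cell these shares were 9.81% [6.18 to 14.6] in MCAO and 16.7% [10.5 to 24.6] in control cells, which overlap, against 0.162% of MCAO and 0.187% of control B-lineage cells. Muc13, a membrane mucin, had 0.317 in MCAO and 0.523 in control promyelocytes. Kit, the stem cell factor receptor, had 0.896 in MCAO and 1.01 in control promyelocytes, with an interval of its fold from 0.745 to 1.05. Hoxa9, a homeobox gene of progenitors, went against the group, with 0.339 in MCAO and 0.128 in control promyelocytes (fold 2.64 [1.75 to 4.12]). Gata2, which basophil and mast cells use too, had 0.137 in MCAO and 0.371 in control promyelocytes.

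Among 17 myeloid transcription factors compared, 8 stood higher and 9 lower, and the median was 0.00 to 2 decimals. Cebpa, the factor that opens the granulocyte programme, had 1.74 in MCAO and 1.73 in control promyelocytes. Spi1, which codes for PU.1, had 3.14 in MCAO and 3.04 in control promyelocytes, and Klf4 had 0.646 in MCAO and 0.647 in control. Cebpe stood higher in MCAO (fold 1.45 [1.27 to 1.65]). Myc, the growth factor-driven regulator of ribosome synthesis, had 1.32 in MCAO and 1.94 in control promyelocytes (fold 0.680 [0.598 to 0.775]). With a primary sum of 100 to 200, Myc was at 1.27 [1.08 to 1.48] in MCAO and 2.65 [2.31 to 3.02] in control cells. With 200 or more it was at 1.34 [1.21 to 1.49] in MCAO and 1.51 [1.31 to 1.73] in control cells, and these intervals overlapped. Irf8 had a fold of 0.723 [0.667 to 0.784], and in cells below the monocyte cut it was still lower in MCAO, at 1.38, against 2.19 in control. The 12 monocyte markers had 3 ratios above 0 and 9 below, with a median of -0.24 and sums of 75.5 in MCAO and 82.5 in control promyelocytes, and without the cells with monocyte genes the median was 0.012.

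Of 12 primary granule genes outside the gate, 10 had a ratio above 0 and 6 an interval above 1, with a median of 0.17. In B-lineage cells, 7 of the 10 compared stood higher (46.1% of all genes there), with a median of 0.26. The medians were 0.24 in monocyte precursors, 0.01 in pre-neutrophils and -0.20 in progenitors, so the rise was not particular to promyelocytes. Within promyelocytes the direction differed along the stages. The median was 0.21 with a secondary sum under 100. With one of 100 to 400 it was -0.29, where the median of all genes was 0.03. Srgn, the proteoglycan that packs granule proteins, had 38.5 in MCAO and 32.9 in control promyelocytes (fold 1.17 [1.14 to 1.20]). Its direction differed with the primary sum. At 100 to 200, Srgn was at 15.1 [14.5 to 15.8] in MCAO and 18.1 [17.2 to 19.1] in control cells. At 200 or more, it was at 50.02 [49.2 to 50.9] in MCAO and 41.95 [40.9 to 43.1] in control cells. Serpinb1a, an inhibitor of the granule proteases, had 11.01 in MCAO and 8.62 in control promyelocytes (fold 1.28 [1.21 to 1.35]). Ctsc, the protease that activates elastase and cathepsin G, had 1.44 in MCAO and 1.48 in control promyelocytes, with an interval of its fold from 0.848 to 1.12. The direction of Ctsc differed with the primary sum. At 100 to 200, Ctsc was at 2.89 [2.60 to 3.19] in MCAO and 2.23 [1.92 to 2.57] in control cells. At 200 or more, it was at 0.723 [0.624 to 0.832] in MCAO and 1.02 [0.856 to 1.20] in control cells. Lyz2, lysozyme, had 24.7 in MCAO and 19.8 in control promyelocytes, but also 17.0 in MCAO and 16.4 in control B-lineage cells. The 6 subunits of the NADPH oxidase, which makes the superoxide that myeloperoxidase draws on, all had ratios above 0, with a median of 0.27 and 5 intervals above 1; in B-lineage cells all 6 did too, with a median of 0.35. The 8 genes of haem synthesis, which supplies the cofactor of myeloperoxidase, had a median of 0.09 and no interval off 1. Alas1, the first enzyme of that path, had 3.16 in MCAO and 3.25 in control promyelocytes.

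Chaperones of the endoplasmic reticulum, which fold granule proteins, stood lower in MCAO promyelocytes. Of 16 genes, 15 had a ratio below 0 and 10 an interval below 1, and the median was -0.22. Calr, which binds newly made myeloperoxidase, had 31.3 in MCAO and 37.7 in control promyelocytes (fold 0.831 [0.808 to 0.855]). Its median per cell was 25.1 in MCAO and 32.7 in control cells. Hspa5 (BiP), the main chaperone of the lumen, had 15.9 in MCAO and 19.6 in control promyelocytes (fold 0.810 [0.779 to 0.842]). Hsp90b1, Canx, Pdia3 and Pdia6 had folds of 0.840, 0.836, 0.803 and 0.778. The 16 genes summed to 105 in MCAO and 124 in control promyelocytes. The list stood lower within each range as well, with 15 of 16 genes in cells with a secondary sum under 100 (52.7% of all genes there, list median -0.20) and 13 of 14 in those of 100 to 400 (47.3% of all genes there, list median -0.55). In B-lineage cells the median was 0.02, in monocyte precursors 0.11, in progenitors 0.08 and in pre-neutrophils -0.17, and the difference between cell groups was not tested. Of 21 genes of the translocon and signal peptidase, which pass proteins into the reticulum, 9 stood higher and 12 lower, with a median of -0.05, which was 0.029 with a primary sum of at least 200. The stress factor gene Xbp1 had 2.78 in MCAO and 2.83 in control promyelocytes.

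Ribosome assembly genes stood lower in MCAO promyelocytes. Of 18, 4 had a ratio above 0 and 14 below, 9 had an interval below 1, and the median was -0.23. It was -0.19 with a secondary sum under 100 but -0.07 with one of 100 to 400, and -0.26 with monocyte genes under 15 but -0.06 with 15 or more. Npm1, nucleophosmin, had 14.0 in MCAO and 16.9 in control promyelocytes (fold 0.826 [0.792 to 0.861]), and Ncl, nucleolin, had 15.5 in MCAO and 18.1 in control. Nop10, Nop58 and Nop2, parts of the enzymes that modify ribosomal RNA, had folds of 0.722, 0.764 and 0.702. In the other cell groups the medians were 0.12 in B-lineage cells, 0.01 in monocyte precursors, 0.08 in pre-neutrophils and 0.28 in progenitors. The ribosomal proteins themselves moved less, with a median of -0.04 over 84 genes and sums of 634 in MCAO and 649 in control promyelocytes.

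Cell cycle genes differed by small amounts between the libraries over all promyelocytes. Top2a, a topoisomerase of dividing cells, had 11.05 in MCAO and 10.3 in control promyelocytes, beside 5.49 in MCAO and 10.1 in control B-lineage cells, which can include dividing precursors. Per cell, the Top2a median had the other order, at 8.63 in MCAO and 10.05 in control promyelocytes. Mki67 had 7.67 in MCAO and 6.43 in control promyelocytes (fold 1.19 [1.12 to 1.27]), and its median per cell was 6.93 in MCAO and 5.17 in control. Of 18 S-phase genes, 11 stood higher and 7 lower, with a median of 0.08 and sums of 36.9 in MCAO and 34.4 in control promyelocytes. The interval of the fold lay above 1 for 6 S-phase genes and below 1 for 0. Rrm2, a subunit of ribonucleotide reductase, had 5.55 in MCAO and 4.53 in control promyelocytes, and Ccne2, cyclin E2, had 0.669 in MCAO and 0.481 in control. Of 20 genes of G2 and M phase, 12 stood higher and 8 lower, with a median of 0.05 and sums of 44.7 in MCAO and 41.6 in control promyelocytes. Of these, 4 had an interval above 1 and 0 below. With a secondary sum of 100 to 400, 17 stood higher and 3 lower, with a median of 0.29 (1923 of all 3649 genes there stood higher). With a secondary sum under 100, 8 stood higher and 12 lower, with a median of -0.04. Cenpe, a kinetochore motor, had the furthest ratio of the 20 over all promyelocytes, with 2.11 in MCAO and 1.33 in control promyelocytes.

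Interferon-response genes stood lower in MCAO promyelocytes. Of 20 genes, 18 had a ratio below 0 and 16 an interval below 1, with a median of -0.58 and sums of 15.1 in MCAO and 22.6 in control promyelocytes. Bst2 (tetherin), which holds budding virus at the cell surface, had 1.02 in MCAO and 2.09 in control promyelocytes (fold 0.488 [0.426 to 0.559]). Isg15, a ubiquitin-like modifier, had 0.264 in MCAO and 0.564 in control promyelocytes (fold 0.469 [0.358 to 0.613]). Oasl2 had 0.985 in MCAO and 1.88 in control, and Irf7, the amplifier of the response, had 0.239 in MCAO and 0.468 in control. Ifitm3, a membrane protein that blocks virus entry, had 6.71 in MCAO and 9.28 in control promyelocytes. Ifit2 and Stat2 were the 2 genes with ratios above 0, at 0.55 and 0.33. Per cell, the list summed to a median of 13.5 in MCAO and 20.6 in control promyelocytes, and with 25th and 75th percentiles of 10.00 and 19.0 in MCAO and of 16.1 and 28.2 in control cells, which overlap. Their receptors did not stand lower as a pair: Ifnar1 had 0.307 in MCAO and 0.261 in control promyelocytes, and Ifnar2 had 0.601 in MCAO and 0.610 in control, both with intervals of the fold that hold 1.

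Genes of MHC class I, the display system that interferon raises, followed the same order. All 13 compared had ratios below 0 and 11 an interval below 1, with a median of -0.44. B2m, the light chain, had 17.9 in MCAO and 24.2 in control promyelocytes (fold 0.738 [0.712 to 0.765]), and its median per cell was 17.2 in MCAO and 23.8 in control cells. The heavy chain gene H2-K1 had 8.83 in MCAO and 13.005 in control promyelocytes (fold 0.679 [0.646 to 0.713]). Psmb9, a subunit of the immunoproteasome, had 1.16 in MCAO and 1.73 in control promyelocytes. H2-Q6 and H2-Q7, at folds of 0.381 and 0.486, are near-identical copies whose reads the authors' counting could split, so their separate values are uncertain. Interferon-response and MHC class I medians were also below 0 in each other cell group. For interferon they were -0.60 in monocyte precursors, -0.49 in pre-neutrophils, -0.48 in progenitors and -0.25 in B-lineage cells. For MHC class I they were -0.50, -0.49, -0.41 and -0.20 in the same order of cell groups. Within the monocyte range of promyelocytes 11 of 12 interferon genes stood lower in MCAO (46.9% of all genes there) and below it 16 of 18 (53.7% of all genes there).

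**Figure D5:**
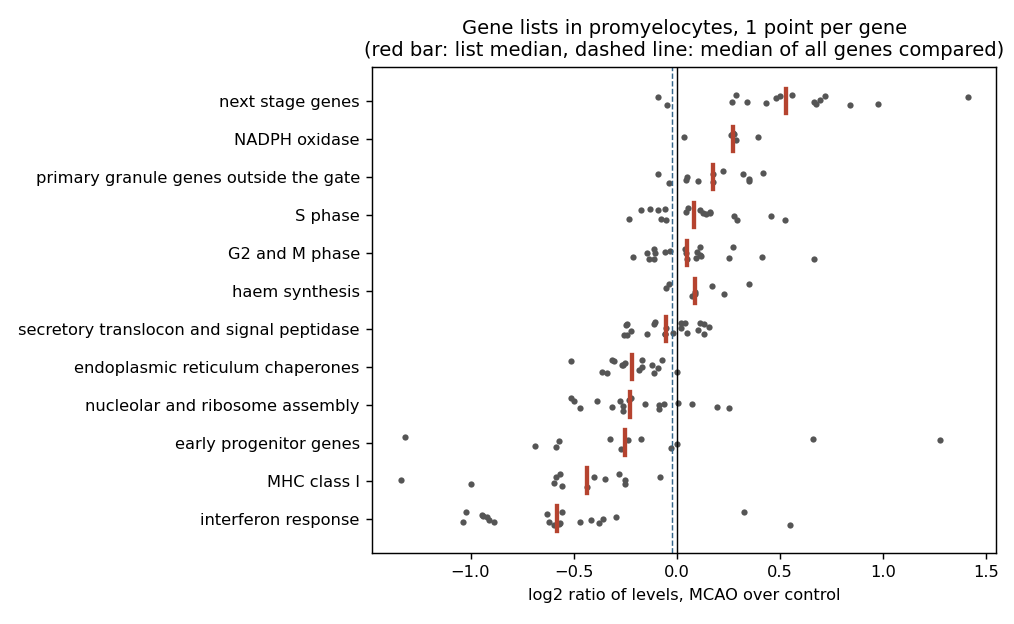
The log2 ratio of levels, MCAO over control (x axis), of each compared gene in 12 gene lists in promyelocytes, with 1 point per gene, red bars at list medians and a dashed line at the median of all 9223 genes. Next-stage genes have a median of 0.53, while MHC class I and interferon-response genes have medians of -0.44 and -0.58.

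Signals for growth factors and for adhesion moved little as lists. Of 14 receptor genes, 8 stood higher and 6 lower, with a median of 0.14, which was -0.021 in cells between the 25th and 75th percentile of UMIs. Csf3r, the G-CSF receptor, had 1.16 in MCAO and 1.22 in control promyelocytes, with an interval of its fold from 0.810 to 1.10. Csf2ra, the GM-CSF receptor alpha chain, had 6.45 in MCAO and 5.71 in control promyelocytes (fold 1.13 [1.05 to 1.21]). Of 11 adhesion and retention genes, 4 stood higher and 7 lower, with a median of -0.13, which was 0.082 in cells with a primary sum of at least 200. Cxcr4, the receptor that holds cells in marrow, had 3.13 in MCAO and 3.55 in control promyelocytes (fold 0.881 [0.805 to 0.965]). Itgam, the integrin CD11b, had 2.95 in MCAO and 2.02 in control promyelocytes (fold 1.46 [1.30 to 1.63]).

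The genes furthest from 0 were low in level. Clec11a, a growth factor for blood and bone progenitors, had 78 UMIs in 20 MCAO cells and 3 UMIs in 3 control cells, a ratio of 14.1 [4.66 to 70.1]. Its log2 ratio with the pseudocount was 2.67, and 2.41 without its leading MCAO cell. Stefin A genes, which code for cysteine protease inhibitors, stood as far from 0: Stfa2 had 99 UMIs in MCAO and 5 in control promyelocytes, BC100530 had 61 in MCAO and 2 in control (ratio 16.6 [4.40 to 140.1]), Stfa1 had 54 in MCAO and 4 in control and Stfa3 had 57 in MCAO and 6 in control. These copies are near-identical, so the split between them is uncertain. Stfa2 was at 0.247 in MCAO and 0.0229 in control promyelocytes, and at a higher level in the B-lineage cells of each library, where the 2 stefin genes compared had a median ratio of 2.21. Trem2 (3.99-fold), Vcan (3.89-fold), Olfm4 (2.98-fold), P2ry1 (2.87-fold), Kctd13 (2.83-fold) and Tanc1 (2.82-fold) followed, beside Hoxa9. Olfm4, olfactomedin 4, marks a subset of neutrophils and had 126 UMIs in 29 MCAO cells and 23 UMIs in 22 control cells, and 28 of the MCAO UMIs lay in 1 cell.

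The lowest ratios were led by Rps2-ps10, a ribosomal protein pseudogene inside Pde6a, with 16 UMIs in MCAO and 44 in control promyelocytes. Bach2, a repressor best known from B cells, had 16 UMIs in MCAO and 43 in control promyelocytes, and Ly6d, a B-lineage and progenitor antigen, had 41 UMIs in MCAO and 80 in control, of which 27 lay in 1 control cell (log2 ratio -1.66 with that cell and -1.11 without it). The 4 B-lineage markers compared had a median of -1.13, and Bach2 was at 7.09 in MCAO and 11.9 in control B-lineage cells. What part the larger share of B-lineage cells in the control library had in these values was not tested. Thbs1, thrombospondin, had 14 UMIs in MCAO and 37 in control promyelocytes, Akap12 had 18 in MCAO and 44 in control, and Mdga1 had 19 in MCAO and 34 in control. The interferon-induced GTPase gene Tgtp2, which has a near-identical copy, had 31 UMIs in MCAO and 63 in control promyelocytes.

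Beside H2-Q6, the rest of the 12 lowest ratios were basophil and mast cell genes, of which a single cell often held many UMIs. Cpa3, a mast cell carboxypeptidase, had 272 UMIs in MCAO and 473 in control promyelocytes, of which 107 lay in 1 control cell. Its log2 ratio was -1.65, and 0.54 in promyelocytes with a primary sum of at least 200. Prss34, a basophil protease, had 437 UMIs in MCAO and 625 in control promyelocytes, of which 287 lay in 1 MCAO cell; its log2 ratio was -1.38 with that cell and -2.87 without it. Ms4a2, the IgE receptor beta chain, had 65 UMIs in MCAO and 102 in control, and its ratio was -1.42 with the leading control cell and -0.43 without it. Il1rl1, the IL-33 receptor, had 17 UMIs in MCAO and 33 in control, with a ratio of -1.46 and, without its leading control cell, -0.78. With the cells that had basophil or eosinophil genes left out, Cpa3 was at 0.253 in MCAO and 0.313 in control promyelocytes, and Prss34 at 0.380 in MCAO and 0.612 in control. Of the 53 genes at least 2-fold lower, 37 were still so after these cells were left out, and of the 35 at least 2-fold higher, 31 were.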

How the data were processed

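Single-cell mRNA of marrow was measured in 1 MCAO and 1 control library. Per the submitters' processing notes, the build was mm10 and the tools included STAR, fastp, Seurat 4.0.6 and UMI-tools. Their order, the gene annotation and any cell filter are not given in the sources used here. What the authors deposited is a single matrix of natural log values, covering 25943 genes and 10610 cells. Each value is the natural log of 1 plus the gene's UMIs per 10000 UMIs of the cell, as read from the values. The smallest step in a cell gave the worth of 1 UMI, and 100% of 19373615 values above 0 were whole UMIs within 0.01. Cells were given to a library by their column names, Mandarin words for control and stroke. Cell names are running numbers, not barcodes, so barcodes shared between the libraries could not be counted.

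The members and gene lists were chosen with earlier results of these data known. Levels are summed UMIs per 10000 with exact Poisson intervals, shares have exact Clopper-Pearson intervals and folds have exact conditional intervals, all at 95% and for counting error only. Log2 ratios carry a pseudocount of 0.02, which understates the change of low genes, and folds carry none. A gene was compared when its UMIs in the 2 libraries summed to 50 or more and it was seen in at least 2% of the promyelocytes of 1 library. Genes named are mainly the 5 markers, the other gate genes, stage and branch genes and up to 6 examples per list. Some genes that went against their list, the 12 highest and 12 lowest ratios and the 12 highest over other cells are named too. Haemoglobin genes, antigen receptor segments and Gm or Rik models were not ranked. Scrublet in scanpy 1.11.5 marked 64 MCAO and 62 control cells as doublets, of which 1 MCAO and 0 control cells were promyelocytes. Marked cells were kept and left out as an alternative. Positions are from GENCODE on GRCm38, which is mm10.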

Additional observations from a re-analysis of the deposited data

How the results depend on the processing

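No paired analysis was possible because each group had 1 library, and none could be left out. The share difference of 1.55 percentage points lay between 1.12 and 1.91 under all 9 alternatives. The counts at 2-fold depended on the filter and weighting: 93 higher and 113 lower with at least 20 UMIs, 5 higher and 9 lower with at least 200 UMIs, 91 higher and 133 lower with each cell weighted alike, and 66 higher and 83 lower in promyelocytes between the 25th and 75th percentile of UMIs, where fewer UMIs are summed. The next-stage median was 0.42 with a primary sum of at least 200, 0.65 with a secondary sum under 200, 0.84 between those percentiles and 0.62 without the cells with monocyte genes. Between the percentiles the medians were also -0.35 for chaperones, -0.46 for ribosome assembly, 0.32 for primary granule genes outside the gate and 0.23 for S phase, and with each cell weighted alike MHC class I was -0.34. Of 26 list medians 9, and of 58 named genes 5 (Cpa3, Elane, Kcnip3, Nkg7 and Vat1), turned sign under at least 1 alternative. These included early progenitor genes (0.012), adhesion (0.082), the translocon (0.029), Cpa3 (0.54) and Elane (-0.042) with a primary sum of at least 200, for receptors (-0.021) between the percentiles and for monocyte markers (0.012) without the cells with monocyte genes. The cause was not tested. Leaving out cells with monocyte, basophil or eosinophil genes, or each gene's leading cell, was chosen after seeing the data. The interferon median kept its sign under all 15 alternatives, between -0.62 and -0.47. At 50 UMIs, a gene's interval is wide, so single genes at low level are weakly bounded.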

Other observations

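Housekeeping programmes of the promyelocytes differed by small amounts between the libraries. Of 90 nuclear-encoded respiratory chain genes compared, 36 stood higher and 54 lower in MCAO, with a median log2 ratio of -0.05. Of 14 glycolysis genes, 8 stood higher and 6 lower, with a median of 0.09, and Gpi1, glucose phosphate isomerase, had 8.48 UMIs per 10000 in MCAO and 7.22 in control promyelocytes. Genes that respond at once to handling or stress were mostly lower: of 11 immediate early and heat shock genes, 3 stood higher and 8 lower, with a median of -0.16, and Jun had 0.736 in MCAO and 1.10 in control promyelocytes. Of 10 glucocorticoid-response genes, 2 stood higher and 8 lower, with a median of -0.20. Among all genes compared in promyelocytes, 53.3% stood lower. Fkbp5, a co-chaperone of the glucocorticoid receptor, had 1.14 in MCAO and 1.15 in control promyelocytes. Per1, a clock gene that glucocorticoids induce, had 0.147 in MCAO and 0.275 in control. The medians of the handling or stress list and the glucocorticoid list were below 0 in each other cell group too. For handling or stress they were -0.36 in progenitors, -0.34 in monocyte precursors, -0.32 in B-lineage cells and -0.21 in pre-neutrophils. For glucocorticoids they were -0.37, -0.31, -0.27 and -0.15 in the same order. The lower levels were thus not particular to promyelocytes.

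Haemoglobin mRNA, which promyelocytes do not make, summed to 16.4 in MCAO and 8.74 in control promyelocytes, and to 28.7 in MCAO and 11.3 in control B-lineage cells. The alarmin genes S100a8 and S100a9 had 140.1 and 117 in MCAO promyelocytes and 99.5 and 97.3 in control promyelocytes, beside 74.1 and 69.1 in MCAO and 56.6 and 59.9 in control B-lineage cells. What part RNA from other cells had in the promyelocyte values was not tested.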
